A study of Neurospora crassa with 54 samples.

Results

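Of the 10398 genes annotated in the filamentous fungus Neurospora crassa, 106 lay away from the chromosome ends and had RNA levels several-fold higher in every library lacking hH2Az, the gene for the histone variant H2A.Z, than in any library keeping it. They were chosen on CPM, the read count of a gene scaled to a library total of 1000000 counts. A member had its midpoint over 200 kb from both chromosome ends, a mean of at least 1 CPM in the 6 libraries lacking hH2Az, and a lowest CPM there of at least 3 times the highest CPM in the 6 libraries keeping the gene. Its lowest CPM in ∆set-7 also had to be below 2 times its highest in wild type. This left out genes with every ∆set-7 library at least 2 times the highest wild-type library. Of 9614 genes over 200 kb from both ends, 109 met the conditions on level and hH2Az (1.12% of all genes in the table met them, wherever they lay), 107 of them also met the one on set-7, and hsp78 was then set aside. The label of the group speaks of repression, and these data measure RNA levels only. Whether H2A.Z lay at these genes was not analysed here.

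H2A.Z replaces histone H2A in a share of nucleosomes, often those beside transcription starts, and is known in fungi for both keeping genes off and making them ready to be switched on. SET-7 is the histone methyltransferase that places methyl groups on lysine 27 of histone H3, a mark that in Neurospora lies mostly near the chromosome ends. The libraries came from mycelium of 4 strains with 3 libraries each: ∆hH2Az, ∆hH2Az;∆set-7, ∆set-7 and wild type. Growth was at 30 °C under constant light for 12 h, in minimal medium with 2% glucose, for all 4 strains. The labels give 1 strain number per genotype, so each genotype is represented by what appears to be a single isolate, and they do not say whether the 3 libraries of a strain came from separate cultures. The p-values below therefore measure the spread between these libraries, which may be technical.

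Total counts ranged from 13581416 to 19720473 per library. Reads on hH2Az were fewer in the strains lacking it, with 17.7, 19.3 and 35.2 CPM in ∆hH2Az and 40.6, 41.3 and 24.2 CPM in ∆hH2Az;∆set-7, against 71.2, 87.7 and 92.1 CPM in ∆set-7 and 57.3, 64.4 and 76.7 CPM in wild type. None of the libraries lacking the gene was at 0 reads, and these remaining reads were not traced to a strand or a part of the gene here. Reads on set-7 lay between 2.9 and 5.53 CPM in the strains lacking it and between 7.29 and 13.5 CPM in the strains keeping it. Within every strain the labels mark replicate 3 with another number tag than replicates 1 and 2, and give no meaning for it. The 4 libraries of replicate 3 stood apart from the other 2 of their strain. A chi-square per gene was 136 to 351 between replicate 3 and either other library of a strain, and 25.5 to 45.3 between replicates 1 and 2, where sampling noise alone gives 1. In bulk RNA, fewer cells of a type and less RNA per cell cannot be told apart.

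Together the 106 genes took 4.75%, 4.32% and 5.45% of all counts in ∆hH2Az and 4.4%, 3.97% and 4.47% in ∆hH2Az;∆set-7. They took 0.429%, 0.459% and 0.486% in ∆set-7 and 0.443%, 0.466% and 0.585% in wild type. On average over the libraries lacking hH2Az, the largest share belonged to aod-1, and without it the members still took 3.15% to 4.3% there. The median member had a mean of 103 CPM in the libraries lacking hH2Az and 11.4 CPM in those keeping it. The ratio of these means ran from 4.4 to 159, with a median of 10.3, and it was at least 10 for 56 members and at least 20 for 22. The median ratio was 9.82 within the 4 libraries of replicate 3 and 10.1 within the 8 libraries of replicates 1 and 2. All of these values describe the choice, which used them, and none was tested.

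**Figure D1:**
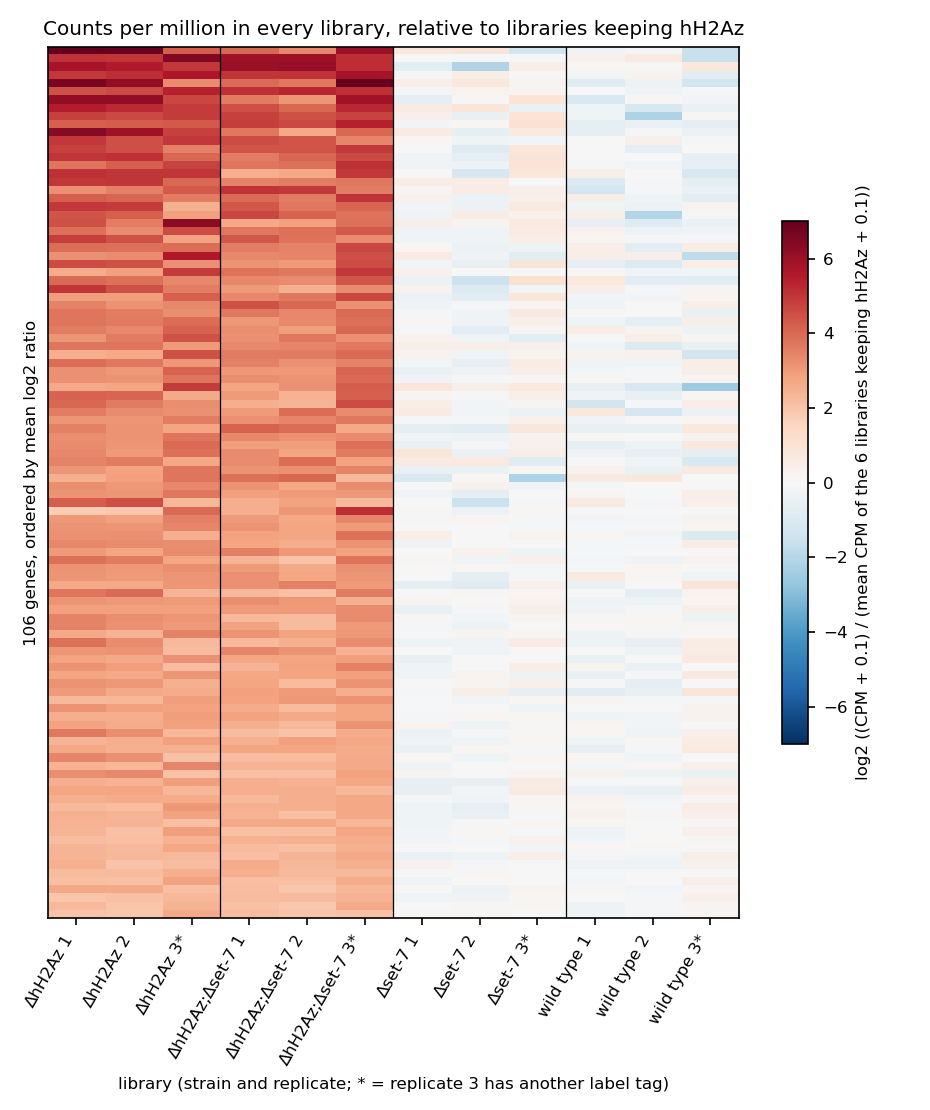
Each row is 1 of the 106 genes and each column 1 library, and colour gives the log2 ratio of its CPM to the mean CPM of the 6 libraries keeping hH2Az, with 0.1 CPM added to both. The 6 libraries lacking hH2Az, on the left, are red throughout, as the rule requires, and the shade of many upper rows differs between replicates 1 and 2 and replicate 3 of one strain.

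The members started from very different levels. In the libraries keeping hH2Az, 20 had a mean below 1 CPM, 50 a mean below 10 CPM and 11 a mean of at least 100 CPM. In the libraries lacking it, 13 stayed below 10 CPM, 53 reached 100 CPM and 12 reached 1000 CPM. The genes tested over 200 kb from both ends had a median of 24.1 CPM in the libraries keeping hH2Az. No member had 0 reads in all 6 libraries keeping the gene, and 4 had 0 reads in at least 1 of them. One of the 4, NCU09339, had 3.47 to 9.58 CPM in the libraries lacking hH2Az and at most 5 reads in any library keeping it. It had 0 reads in wild type replicate 2, which at a limit of 3 reads allows up to 0.193 CPM, for counting error only.

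Only 13 of the 106 members carry a gene symbol in the RefSeq table, 12.3% against 13.2% of the genes tested over 200 kb from both ends, so most members are described here by their locus number and without a role. The member with the highest mean CPM over the libraries lacking hH2Az encodes alternative oxidase, the mitochondrial enzyme that passes electrons from ubiquinol straight to oxygen and so bypasses the cytochrome chain. In Neurospora this gene is known to be induced when the cytochrome chain is blocked. aod-1 (NCU07953, chromosome IV from 1234976 to 1237012 in NC12, plus strand) had 4521, 4437 and 11930 CPM in ∆hH2Az and 8419, 8174 and 4871 CPM in ∆hH2Az;∆set-7, against 136, 123 and 123 CPM in ∆set-7 and 166, 220 and 45.7 CPM in wild type. The lowest library lacking hH2Az was 20.1 times the highest library keeping it. Per kb of exon, aod-1 ranked 8 among all genes in ∆hH2Az and 924 in wild type. Its log2 fold change was 5.28 (SE 0.651) in ∆hH2Az against wild type and 5.56 (SE 0.66) in ∆hH2Az;∆set-7 against ∆set-7.

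The second alternative oxidase gene among the members was much less abundant. aod-3 (NCU04874, chromosome IV) had 28.4, 29.9 and 132 CPM in ∆hH2Az and 30.6, 40.3 and 83.1 CPM in ∆hH2Az;∆set-7, against 7.82, 5.8 and 6.95 CPM in ∆set-7 and 3.02, 1.93 and 0.709 CPM in wild type. In both strains lacking hH2Az replicate 3 was the highest. Every ∆set-7 library lay above every wild-type library, at 1.8 on the log2 scale (SE 0.702), without a call (adjusted p = 0.51 in edgeR). The table holds 4 symbols of the form aod, grouped by symbol alone after the values were seen. The shared symbol does not make aod-2 and aod-5 genes for an oxidase. These 2 were not called in ∆hH2Az against wild type or in ∆hH2Az;∆set-7 against ∆set-7. They averaged 22 and 24.1 CPM in ∆hH2Az against 12.2 and 19.1 CPM in wild type.

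Further members with a symbol encode proteins that work in mitochondria. hsp70-5 encodes a mitochondrial Hsp70 chaperone, which pulls in and folds imported proteins, and hsp60 encodes the mitochondrial chaperonin. hsp70-5 (NCU08693) had 4346, 3904 and 5538 CPM in ∆hH2Az and 4189, 4164 and 4600 CPM in ∆hH2Az;∆set-7, against 427, 594 and 600 CPM in ∆set-7 and 446, 602 and 991 CPM in wild type. hsp60 (NCU01589) had 1832, 1582 and 1566 CPM in ∆hH2Az and 1891, 1882 and 1664 CPM in ∆hH2Az;∆set-7, against 204, 304 and 265 CPM in ∆set-7 and 188, 256 and 444 CPM in wild type. Of all members hsp60 was the most even among the libraries lacking hH2Az, where its highest value was 1.21 times its lowest. For both chaperones the highest library keeping hH2Az was wild-type replicate 3.

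tim50 and cyt-2 were nearer the limit of the rule. tim50 (NCU02943), a subunit of the TIM23 translocase that carries proteins across the inner membrane, had 430, 415 and 705 CPM in ∆hH2Az and 432, 436 and 607 CPM in ∆hH2Az;∆set-7, against 79.9, 101 and 96.7 CPM in ∆set-7 and 85.5, 100 and 133 CPM in wild type. cyt-2 (NCU05601), the heme lyase that attaches heme to cytochrome c, had 262, 212 and 394 CPM in ∆hH2Az and 209, 221 and 342 CPM in ∆hH2Az;∆set-7, against 43.7, 56.9 and 46.5 CPM in ∆set-7 and 40.1, 51.6 and 66.3 CPM in wild type. Both were highest in replicate 3 of the strains lacking hH2Az. Just inside the limit of 3, the ratio of the lowest library lacking hH2Az to the highest keeping it was 3.04 for NCU04218, 3.11 for tim50 and 3.16 for NCU10360. Just outside, it was 2.96 for NCU07345, 2.95 for NCU03231 and 2.91 for NCU12034.

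The gene set aside by the rule, hsp78, is named for a mitochondrial chaperone that in yeast dissolves protein aggregates. It had 342, 325 and 504 CPM in ∆hH2Az and 467, 422 and 437 CPM in ∆hH2Az;∆set-7, against 36.7, 33 and 42.1 CPM in ∆set-7 and 39.7, 36.7 and 37.4 CPM in wild type. It met every other condition of the rule, so its groups could not overlap.

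**Figure D2:**
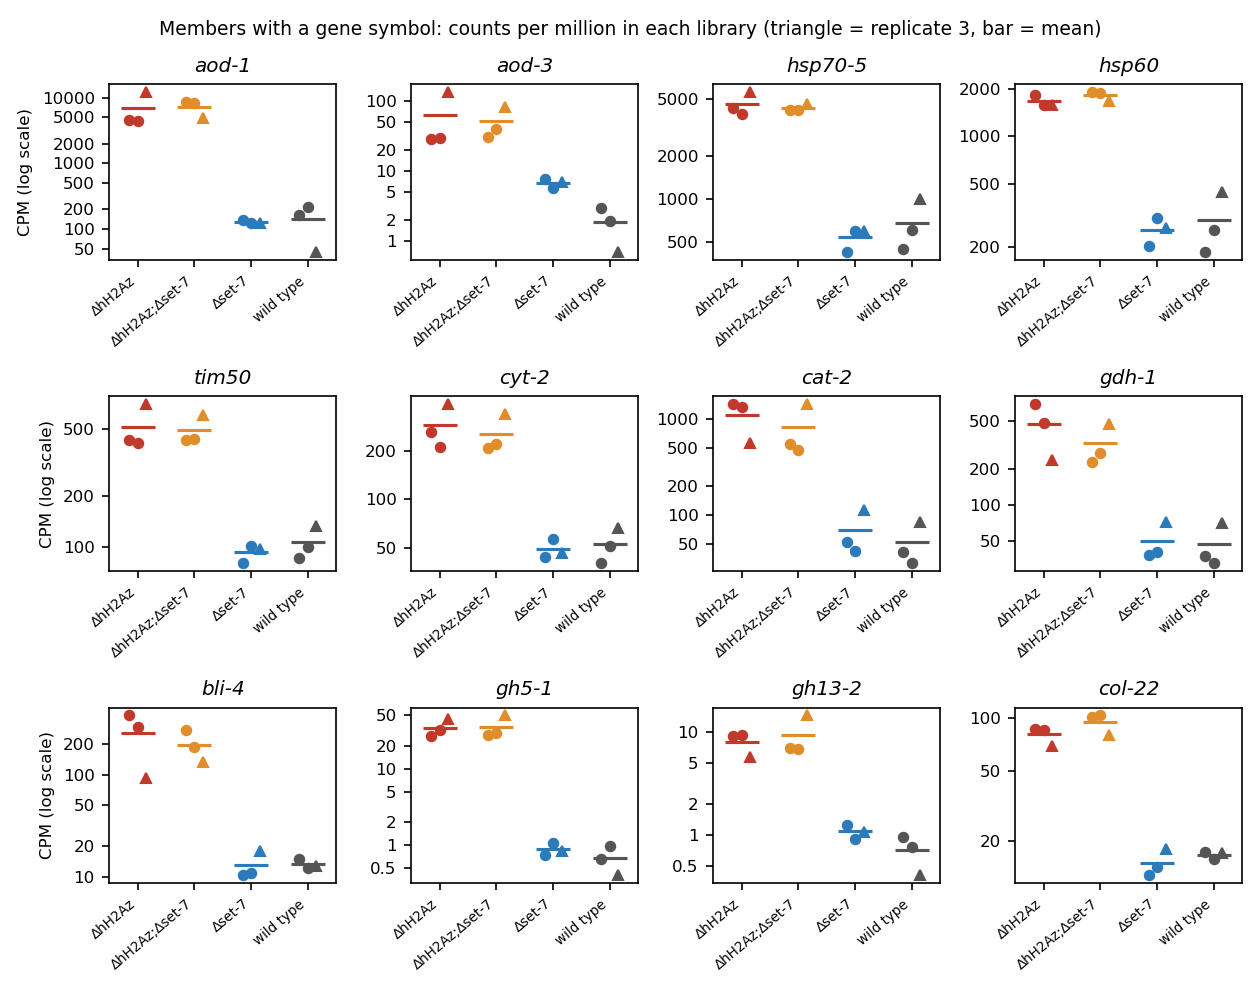
CPM on a log scale for 12 of the 13 members with a gene symbol, with 1 point per library, a triangle for replicate 3 and a bar at the mean of the 3 libraries of a strain. In every panel the 6 points of ∆hH2Az and ∆hH2Az;∆set-7 lie above the 6 points of ∆set-7 and wild type, and for cat-2 and gdh-1 the triangle is the lowest point of ∆hH2Az and the highest of ∆hH2Az;∆set-7.

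Members with a symbol also included metabolic and extracellular enzymes. cat-2 (NCU05770), a catalase-peroxidase that breaks down hydrogen peroxide, had 1443, 1340 and 564 CPM in ∆hH2Az and 548, 482 and 1446 CPM in ∆hH2Az;∆set-7, against 52.8, 43 and 113 CPM in ∆set-7 and 41.5, 31.8 and 84.3 CPM in wild type. gdh-1 (NCU00461), the NAD-specific glutamate dehydrogenase that releases ammonium from glutamate, had 696, 482 and 236 CPM in ∆hH2Az and 230, 273 and 478 CPM in ∆hH2Az;∆set-7, against 38, 40.2 and 71.6 CPM in ∆set-7 and 37.6, 32.7 and 70.2 CPM in wild type. For both genes, replicate 3 of each strain lacking hH2Az was nearer to replicates 1 and 2 of the other strain than to its own. This held for 25 members (23.6%) and for 21.3% of all genes tested. The reads on set-7 in those libraries went with their labels, at 13.5 CPM in ∆hH2Az replicate 3 and 3.28 CPM in ∆hH2Az;∆set-7 replicate 3. The reads on hH2Az, the gene both strains lack, were nearer to the other strain, at 35.2 CPM in ∆hH2Az replicate 3 and 24.2 CPM in ∆hH2Az;∆set-7 replicate 3.

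gh5-1 (NCU00762), a cellulose-degrading endoglucanase of glycoside hydrolase family 5, was the member with the widest gap. It had 27, 31.8 and 44.7 CPM in ∆hH2Az and 28, 29.1 and 49.9 CPM in ∆hH2Az;∆set-7, against 0.742, 1.08 and 0.839 CPM in ∆set-7 and 0.663, 0.967 and 0.414 CPM in wild type. Its lowest library lacking hH2Az was 25 times its highest library keeping it. gh13-2 (NCU09805), of the alpha-amylase family GH13, averaged 8 CPM in ∆hH2Az and 9.33 CPM in ∆hH2Az;∆set-7, against 1.08 CPM in ∆set-7 and 0.715 CPM in wild type. Of 71 tested genes for carbohydrate-active enzymes, 15 were higher and 14 lower in ∆hH2Az than in wild type, and 7 were higher and 13 lower in ∆hH2Az;∆set-7 than in ∆set-7 (edgeR, adjusted p under 0.05). Of all genes tested, 16.2% were higher and 14.9% lower in ∆hH2Az, and 14.7% were higher and 15% lower in ∆hH2Az;∆set-7. Both gh members are counted among the higher genes in each comparison.

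The last members with a symbol were bli-4, col-22 and map-1. bli-4 (NCU08699), known as a gene induced by blue light, had 379, 293 and 92 CPM in ∆hH2Az and 271, 185 and 133 CPM in ∆hH2Az;∆set-7, against 10.5 to 18 CPM in ∆set-7 and 12.1 to 15 CPM in wild type. col-22 (NCU04390), named for a colonial growth mutant, ranged from 69.1 to 86.8 CPM in ∆hH2Az and from 79.6 to 103 CPM in ∆hH2Az;∆set-7, against 12.8 to 18 CPM in ∆set-7 and 15.7 to 17.2 CPM in wild type. map-1 (NCU01479) averaged 1277 CPM in ∆hH2Az and 1301 CPM in ∆hH2Az;∆set-7, against 181 CPM in ∆set-7 and 256 CPM in wild type. bli-4 was lowest in replicate 3 of both strains lacking hH2Az, whereas map-1 was highest there.

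Among the members without a symbol, the 10 most abundant per kb of exon in the libraries lacking hH2Az included NCU03310, NCU02771, NCU08946, NCU06086, NCU08291 and NCU09136, beside aod-1, hsp70-5 and hsp60. These 6 had means of 144 to 324 CPM over the libraries keeping hH2Az, above the median member, and their ratio of means was 6.58 to 8.96. NCU03310, the second of the 10, had 2648, 2560 and 3213 CPM in ∆hH2Az and 2596, 2006 and 2312 CPM in ∆hH2Az;∆set-7, against 288, 302 and 268 CPM in ∆set-7 and 283, 303 and 344 CPM in wild type. The remaining one of the 10, NCU00732 (chromosome I from 7386748 to 7388890, minus strand), was far less even. It had 4901, 4365 and 213 CPM in ∆hH2Az and 180, 114 and 725 CPM in ∆hH2Az;∆set-7, against 18.8, 20.3 and 4.07 CPM in ∆set-7 and 8.84, 10.3 and 3.72 CPM in wild type. Its mean rests on ∆hH2Az replicates 1 and 2, and its ratio of means of 159 was the highest of all members.

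After gh5-1 and aod-1, the widest gaps belonged to genes without a symbol: NCU16667, NCU05609, NCU09339, NCU05069, NCU00763, NCU05084, NCU05346 and NCU09046, whose lowest library lacking hH2Az was 8.39 to 19.3 times the highest library keeping it. NCU16667 had 77.8, 86.2 and 145 CPM in ∆hH2Az and 123, 139 and 119 CPM in ∆hH2Az;∆set-7, against 3.14, 4.04 and 3.95 CPM in ∆set-7 and 3.31, 2.84 and 3.13 CPM in wild type. NCU05346 needs a reservation. Its whole span of 1956 bases on the plus strand of chromosome II lies within hH2Az, the deleted gene on the minus strand, and it had only 2.18 to 5.71 CPM in the libraries lacking hH2Az, against 0.0599 to 0.258 CPM in those keeping it. No option for strand was set in the counting, so reads from both strands of this locus cannot be told apart. In all, 23 members (21.7%) overlap another annotated gene, each on the opposite strand, compared with 24.8% of the genes tested over 200 kb from both ends.

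The rule bounded ∆set-7 in more than one way. Its libraries belong to those keeping hH2Az, whose highest CPM the 3-fold condition uses, and the condition on set-7 itself removed NCU08569 and NCU09939. The counts for ∆set-7 against wild type are therefore a description of the choice. No member was called between ∆set-7 and wild type (edgeR, adjusted p under 0.05), where 1.03% of 8372 tested genes were called (1.02% higher and 0.0119% lower), and 7 members had an unadjusted p under 0.05. With the DESeq2 Wald test 1 member was called, with limma-voom none, and within the 8 libraries of replicates 1 and 2 alone 8 were, against 10.7% of all genes there. With the replicate number as a block no member was called and 9 had an unadjusted p under 0.05. The log2 fold change was above 0 for 54 members and under 1 in size for 97. Shares of all genes are not given for the unadjusted p, the sign or the size. All 106 were called higher in ∆hH2Az than in wild type and in ∆hH2Az;∆set-7 than in ∆set-7, where 31.1% and 29.7% of tested genes were called in either direction, and 16.2% and 14.7% were called higher. These counts follow from the rule. Gene by gene, the log2 fold changes in ∆hH2Az against wild type and in ∆hH2Az;∆set-7 against ∆set-7 lay within 0.5 of each other for 66 members and within 1 for 91, and that in ∆hH2Az against wild type was the larger for 63. For NCU05609 they were 6.24 (SE 0.516) in ∆hH2Az;∆set-7 against ∆set-7 and 4.93 (SE 0.482) in ∆hH2Az against wild type.

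**Figure D3:**
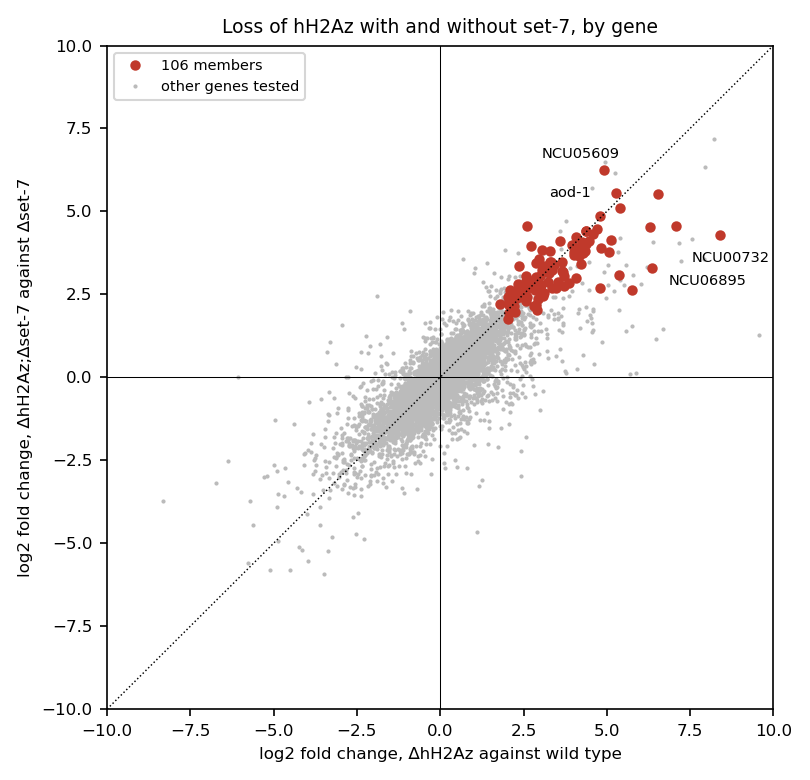
Each point is a tested gene, with its log2 fold change in ∆hH2Az against wild type on the horizontal axis and in ∆hH2Az;∆set-7 against ∆set-7 on the vertical axis, and the dotted line marks equal values. The 106 members, in red, lie at the upper right by choice, NCU00732 and NCU06895 fall well below the line, and 1 tested gene lies outside the axes.

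The difference between the strains lacking hH2Az did not itself enter the rule, but the rule bounds it, since all 6 of their libraries had to lie at least 3-fold above the libraries keeping hH2Az. How low a member could lie in either strain was thus limited, and the counts below hold for members limited in that way. Between ∆hH2Az;∆set-7 and ∆hH2Az, 1 of 106 members was called (0.943%), against 1.45% of all genes tested (1.12% higher and 0.323% lower), and 12 had an unadjusted p under 0.05. The members' median log2 fold change was -0.09, against -0.01 over all genes, 97 of 106 were under 1 in size, and 45 were above 0. Shares of all genes are not given for the unadjusted p, the size or the sign. Those counts are therefore not shown to be particular to the members. The called member was NCU06895 (chromosome VII from 692576 to 694655, plus strand). It had 6.64, 3.22 and 8.52 CPM in ∆hH2Az;∆set-7 and 43.9, 32.3 and 14.4 CPM in ∆hH2Az, at -2.31 on the log2 scale (SE 0.474, adjusted p = 0.0319 in edgeR). The groups did not overlap, and the share of all genes for which that held is not given. In ∆set-7 and wild type the same gene had 0.221 to 0.719 CPM. The call was lost with the label tag as a block and in a fit of only the 6 libraries of both strains. It was also lost when any one library was left out, except ∆hH2Az replicate 3, ∆hH2Az;∆set-7 replicate 3, ∆set-7 replicate 2 or wild-type replicate 3. The count of called members was 7 without ∆hH2Az replicate 3 and 8 without ∆hH2Az;∆set-7 replicate 3, against 5.57% and 4.27% of all genes in the same fits.

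The next lowest p-values in this comparison belonged to NCU00730, NCU09046, NCU07610 and NCU00732, and none of them passed the threshold (edgeR adjusted p = 0.0889, 0.132, 0.142 and 0.247, in that order). All 4 were lower in ∆hH2Az;∆set-7, at log2 fold changes of -1.54, -1.19, -2.02 and -3.21. Within the 8 libraries of replicates 1 and 2 alone, 42 members were called (39.6%), 12 higher and 30 lower in ∆hH2Az;∆set-7, against 29.5% of all genes (12.6% higher and 16.8% lower). For 63 members (59.4%), the difference between the strains had opposite signs in replicates 1 and 2 and in replicate 3, and the same was true of 61.8% of all genes tested. cat-2 shows this pattern: its log2 fold change was -1.5 (SE 0.179) in replicates 1 and 2, and the log2 difference between both libraries of replicate 3 was 1.36. For NCU00732 these values were -5.04 (SE 0.273) and 1.77. NCU08095, chosen after its values were seen, had 54.8 and 46 CPM in ∆hH2Az;∆set-7 replicates 1 and 2 but 681 CPM in replicate 3, against 350 and 265 CPM in ∆hH2Az replicates 1 and 2 but 34.5 CPM in replicate 3.

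The spread among the 6 libraries lacking hH2Az was itself uneven. The highest of these libraries was below 2 times the lowest for 50 members, at least 3 times it for 27 and at least 10 times it for 5, namely NCU04282, NCU07610, NCU06895, NCU08095 and NCU00732, chosen here for that spread. The highest value fell in ∆hH2Az replicate 3 for 35 members and in ∆hH2Az;∆set-7 replicate 3 for 27. Shares over all genes tested are not given for these counts. Since replicate 3 stood apart over all genes, they are not a trait shown to be particular to the members.

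The label tag was tested with a term for replicate 3 against replicates 1 and 2 in the libraries lacking hH2Az and another in the libraries keeping it. The rule bounds both, since it limits how low the first group and how high the second may go. Among libraries lacking hH2Az, 16 members were called (15.1%), against 9.3% of all genes, 12 of them higher in replicate 3 (11.3%, against 6.55%) and 4 lower (3.77%, against 2.76%), and 38 had an unadjusted p under 0.05. The share of all genes with an unadjusted p under 0.05 is not given. The higher members were NCU04282, NCU02973, NCU09459, NCU05958, NCU07610, NCU04591, aod-3, NCU09862, NCU02305, NCU06513, NCU08899 and tim50. The lower members were NCU09115, NCU07434, bli-4 and NCU07652. Of these 16, NCU09862, NCU02305, NCU06513, NCU08899 and NCU09115 are named only for these calls. Without ∆hH2Az replicate 3 the count was 33, against 20.5% of all genes in that fit, and without ∆hH2Az;∆set-7 replicate 3 it was 32, of which 20 were lower in replicate 3, against 18.4%. It was 8 without ∆hH2Az replicate 1 (2.86% of all genes), without ∆hH2Az;∆set-7 replicate 1 (2.92%) or without wild-type replicate 2 (3.99%). It was 9 without ∆hH2Az replicate 2 (4.74%) or ∆set-7 replicate 1 (4.44%), and 10 without ∆hH2Az;∆set-7 replicate 2 (4.32%). NCU04282, NCU02973, NCU05958, NCU07610, NCU04591 and aod-3 were called under all 18 alternatives run.

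NCU04282 (chromosome V from 5488296 to 5489330, minus strand) had the lowest p. In the libraries lacking hH2Az it had 39 and 89.2 CPM in replicate 3, against 8.42, 9.06, 14.4 and 21.1 CPM in replicates 1 and 2, a rise of 2.3 on the log2 scale (SE 0.185, adjusted p = 0.000807 in edgeR). In the libraries keeping hH2Az it stayed between 1.76 and 2.64 CPM. NCU02973 had 121 and 114 CPM in replicate 3 and 54.9 to 61.4 CPM in replicates 1 and 2 in the libraries lacking hH2Az, a rise of 1.09 on the log2 scale (SE 0.136, adjusted p = 0.00359 in edgeR). Its values in the libraries keeping hH2Az were 9.35 and 8.81 CPM in replicate 3 and 4.91 to 6.06 CPM in replicates 1 and 2.

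Among libraries keeping hH2Az, 3 members were called (2.83%), against 1.8% of all genes: NCU07434 higher in replicate 3 (0.943%, against 1.21%), and NCU07652 and NCU04591 lower (1.89%, against 0.597%). All 3 calls were lost when any one of 9 of the 12 libraries was left out: ∆hH2Az replicates 1 and 2, ∆hH2Az;∆set-7 replicate 1, or any library of ∆set-7 or wild type. In those fits at most 0.0591% of all genes were called. Without ∆hH2Az;∆set-7 replicate 2, and likewise with limma-voom, 1 member was called, against 1.64% and 1.86% of all genes. Without replicate 3 of ∆hH2Az or of ∆hH2Az;∆set-7 8 were, against 13.7% and 13.8%. NCU04591 moved in opposite directions. It had 1074 and 505 CPM in replicate 3 and 202 to 236 CPM in replicates 1 and 2 in the libraries lacking hH2Az, but 13.2 and 6.39 CPM in replicate 3 and 18.3 to 33.5 CPM in replicates 1 and 2 in the libraries keeping it. In a term for the difference between both effects of the tag, chosen after seeing the data, 7 members (6.6%) were called, against 4.3% of all genes: 5 had the higher effect in the libraries lacking hH2Az and 2 the lower, against 2.63% and 1.67% of all genes. None of these calls remained without ∆set-7 replicate 1, where 0.0473% of all genes were called.

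**Figure D4:**
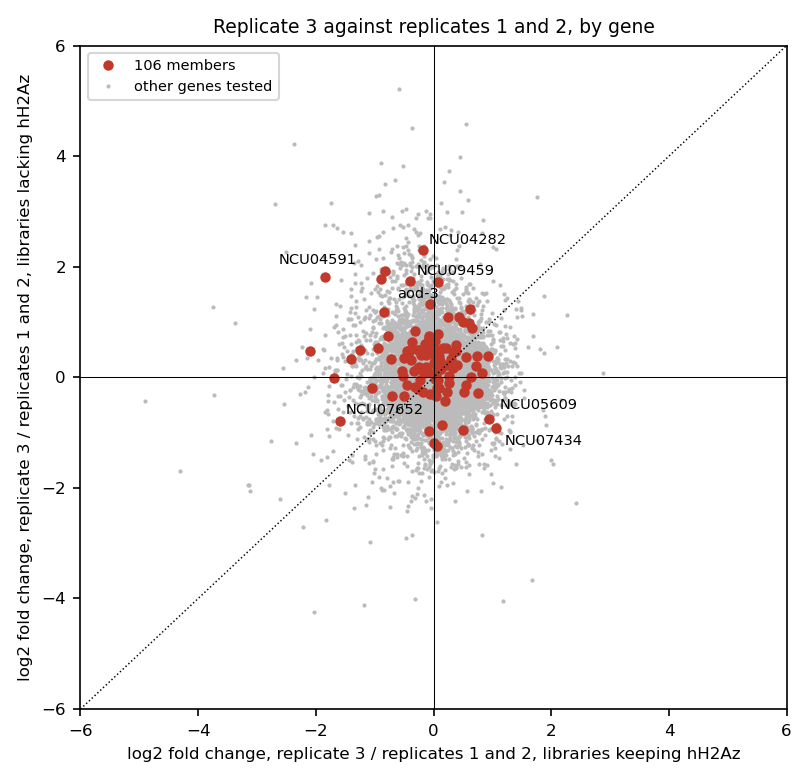
Each point is a tested gene, with its log2 fold change for replicate 3 against replicates 1 and 2 in the libraries keeping hH2Az on the horizontal axis and in the libraries lacking it on the vertical axis. Members are in red, NCU04591 and aod-3 lie at the upper left and NCU07434 at the lower right, and 1 tested gene lies outside the axes.

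Genes for the import of proteins into mitochondria were examined as a group because tim50 and the mitochondrial chaperones were members. The group, chosen after values had been seen, holds all 21 genes with a tim, tom or tob symbol, which name subunits of the inner membrane translocases, the outer membrane translocase and the machinery that inserts barrel proteins into the outer membrane. In ∆hH2Az against wild type, 12 of the 21 were higher and none lower (edgeR, adjusted p under 0.05), where 16.2% of all genes were higher and 14.9% lower, and the median log2 fold change was 0.85, against 0.01 over all genes. In ∆hH2Az;∆set-7 against ∆set-7, 9 were higher and none lower, against 14.7% and 15% of all genes, with a median of 0.68 against 0.03. Within replicates 1 and 2 the counts were 16 higher and none lower in ∆hH2Az against wild type, where 28.6% of all genes were higher and 26.6% lower. They were 11 higher and 4 lower in ∆hH2Az;∆set-7 against ∆set-7, where 28.8% and 28.2% were. The group includes tim50, which the rule had already chosen.

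The largest rises in the group belonged to subunits of the inner membrane translocases. tim22, the channel that inserts carrier proteins, had 172, 144 and 245 CPM in ∆hH2Az and 154, 158 and 227 CPM in ∆hH2Az;∆set-7. It had 27.5, 29.7 and 27.1 CPM in ∆set-7 and 26.3, 28 and 52.3 CPM in wild type. Its libraries lacking hH2Az all lay above those keeping it, as did those of 14% of the 10398 annotated genes. Its log2 fold change was 2.18 (SE 0.289, adjusted p = 0.000252 in edgeR) in ∆hH2Az against wild type. tim17 and tim23, which form the core of the TIM23 translocase, had log2 fold changes of 2 (SE 0.288, adjusted p = 0.000432 in edgeR) and 1.87 (SE 0.291, adjusted p = 0.000722 in edgeR). In the outer membrane, the receptor subunit tom22 rose by 1.55 on the log2 scale (SE 0.21, adjusted p = 0.000292 in edgeR), whereas the receptors tom20 and tom70 were not called, at 0.32 and 0.56. Other genes of the mitochondrion were counted beside them, also chosen after values had been seen. Of 29 genes with a nuo symbol, for respiratory complex I, which passes electrons from NADH to ubiquinone, 1 was higher and 7 lower in ∆hH2Az against wild type, and none was higher and 12 lower in ∆hH2Az;∆set-7 against ∆set-7, beside the same shares of all genes.

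**Figure D5:**
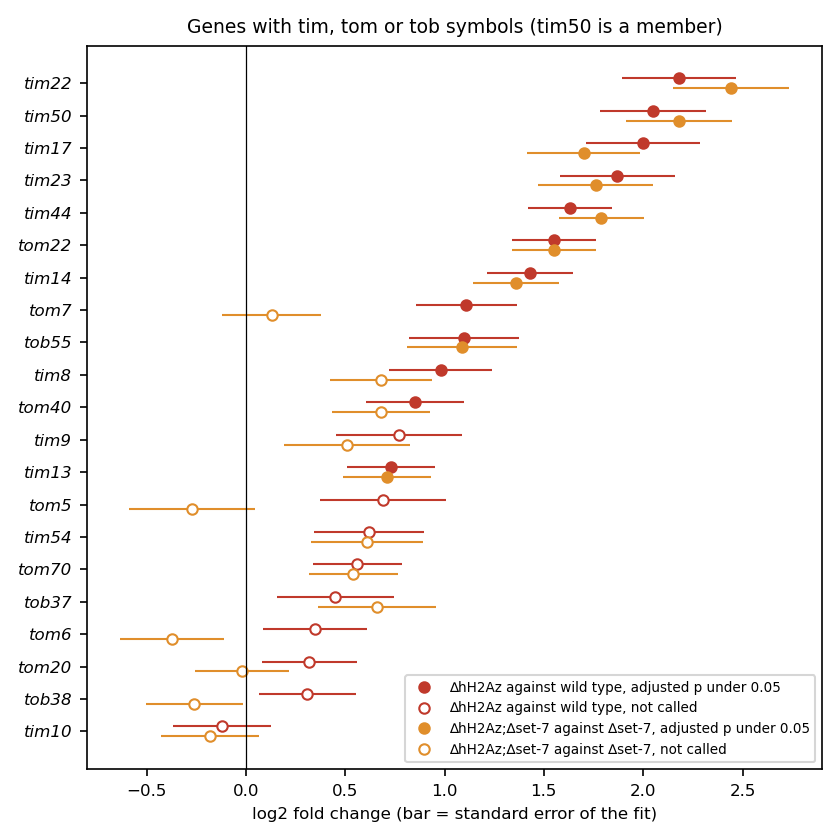
Log2 fold changes of the 21 genes with tim, tom or tob symbols, in ∆hH2Az against wild type and in ∆hH2Az;∆set-7 against ∆set-7, with bars for the standard error and filled points for an edgeR adjusted p under 0.05. The 7 genes at the top, from tim22 to tim14, are filled in both comparisons, and tim10 at the bottom lies below 0 in both.

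Lists for stress and chromatin were counted too, beside 16.2% of all genes higher and 14.9% lower in ∆hH2Az against wild type, and 14.7% higher and 15% lower in ∆hH2Az;∆set-7 against ∆set-7. Of 12 tested genes for heat shock and oxidative stress, 6 were higher and none lower in ∆hH2Az than in wild type, and 5 were higher and none lower in ∆hH2Az;∆set-7 than in ∆set-7. The list includes cat-2 and hsp78, which were chosen or set aside by the rule. sod-2, the mitochondrial superoxide dismutase, was higher in both, by 1.33 and 1.02 on the log2 scale (edgeR adjusted p = 0.000338 and 0.00181), while the cytosolic chaperone gene hsp70-1 was called in neither, at -0.23 and 0.02. The 4 genes of the H3K27 methyltransferase complex held none that was higher, 2 lower in ∆hH2Az and 1 lower in ∆hH2Az;∆set-7. All 6 core and linker histone genes were lower in both comparisons, with median log2 fold changes of -1.01 and -1.23. Of 10 DNA repair genes, 2 were lower and none higher in ∆hH2Az, and 1 was higher and 1 lower in ∆hH2Az;∆set-7. Of 6 heterochromatin genes 1 was higher and 1 lower in each comparison, and of 6 light and clock genes 1 was higher in ∆hH2Az and 2 in ∆hH2Az;∆set-7, with none lower in either.

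Markers of other cell types were counted beside these results and the same shares of all genes. Of 15 tested genes for conidia, the asexual spores, 3 were higher and 4 lower in ∆hH2Az than in wild type, and 3 were higher and 1 lower in ∆hH2Az;∆set-7 than in ∆set-7. Their 16 matched genes summed to 733 to 2225 CPM in the libraries lacking hH2Az and 658 to 1214 CPM in those keeping it. Of 12 tested genes for sexual development, 1 was higher and 2 lower in ∆hH2Az and 1 was higher and 3 lower in ∆hH2Az;∆set-7, and the 16 matched genes summed to 262 to 628 CPM and 259 to 373 CPM in the same groups. Of 6 genes for growing hyphae, none was called in ∆hH2Az and 1 was higher in ∆hH2Az;∆set-7, at sums of 3219 to 6219 CPM and 4499 to 5715 CPM. None of the matched marker genes was at 0 reads in every library. The part of cell type in the members' levels was not tested.

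The members were spread over all 7 chromosomes. They made up 1.02% of the tested genes over 200 kb from both ends on chromosome III, 1.82% on chromosome VII and 1.37% over all chromosomes. Their median distance to the nearest end was 1353 kb, against 1629 kb for all such genes. The median exon length was 1912 bases, against 2150 bases, and the median number of exons 2, against 3.

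Of the members, 12 lay next to another member, in 6 pairs. How many pairs an equal number of other genes would form was not tested. gh5-1 and NCU00763 lay tail to tail with 272 bases between them. tim50 and NCU02942 lay head to head with 992 bases between their starts, and NCU17244 and NCU02329 likewise with 162 bases. NCU00732 and NCU00730, NCU07651 and NCU07652, and NCU08292 and NCU08291 lay in tandem. NCU02942 followed tim50 in level, with 186 to 262 CPM in ∆hH2Az and 188 to 228 CPM in ∆hH2Az;∆set-7, against 23.3 to 52.7 CPM in ∆set-7 and 31.3 to 45.2 CPM in wild type. NCU17244 and NCU02329 were both highest in replicates 1 and 2 of ∆hH2Az and in replicate 3 of ∆hH2Az;∆set-7. NCU08291 was more abundant than its tandem neighbour NCU08292, at 856 and 42.8 CPM per kb of exon on average in the libraries lacking hH2Az.

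The direct neighbours that were not members were called higher about as often as all genes tested. Of 161 tested neighbours, 29 (18%) were higher and 23 (14.3%) lower in ∆hH2Az than in wild type, against 16.2% and 14.9% of all genes tested. In ∆hH2Az;∆set-7 against ∆set-7, 30 (18.6%) were higher and 17 (10.6%) lower, against 14.7% and 15%. By orientation, 10 of 36 head-to-head neighbours (27.8%), 16 of 85 tandem neighbours (18.8%) and 3 of 40 tail-to-tail neighbours (7.5%) were higher in ∆hH2Az, and the difference between these shares was not tested. The head-to-head neighbours held 9 genes with a symbol, described here after the values were seen. In ∆hH2Az against wild type 3 of the 9 were higher (cyc-1, qcr8 and gh13-4), 2 lower (lys-6 and hH2Az itself) and 4 not called (cyt-5, tim10, ypt-1 and mus-51). In ∆hH2Az;∆set-7 against ∆set-7, 2 were higher (cyc-1 and cyt-5) and 1 lower (hH2Az). hH2Az is not a separate neighbour, since it is the deleted gene and spans the whole of NCU05346. Its lower reads are those of the deletion itself. It is nevertheless counted among the tested, the head-to-head and the lower neighbours above. cyc-1, the gene for cytochrome c, lay next to NCU01807. Its log2 fold change was 2.13 (adjusted p = 0.000722 in edgeR) in ∆hH2Az against wild type and 2.01 (adjusted p = 0.00111 in edgeR) in ∆hH2Az;∆set-7 against ∆set-7. qcr8, for a subunit of the cytochrome bc1 complex, lay next to NCU08946, at 1.04 (adjusted p = 0.0123 in edgeR) in ∆hH2Az against wild type and 0.38 (adjusted p = 0.302 in edgeR) in ∆hH2Az;∆set-7 against ∆set-7. lys-6, next to NCU08899, was at -1.33 (adjusted p = 0.0149 in edgeR) in ∆hH2Az against wild type and -0.9 (adjusted p = 0.073 in edgeR) in ∆hH2Az;∆set-7 against ∆set-7. tim10, ypt-1 and mus-51 lay between -0.28 and 0.08 in both comparisons.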

How the data were processed

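RNA-seq counts of 12 libraries from 4 strains were used; the 42 chromatin immunoprecipitation samples of the series were not analysed here. The deposited table holds whole-number read counts per gene, for which the authors ran featureCounts 1.6.2 on the exons of NC12 genes, per the file headers, with no option set for strand, multiple alignments or overlapping genes. The sources used here do not give the aligner. The header's default settings leave out reads that overlap several genes. The exon length column, another deposited value, gave levels per kb. Of 10398 genes, 10397 matched the RefSeq table of the same assembly by position. Chromosome ends were taken as 0 and the last annotated gene end.

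CPM is the count divided by the column sum, without further scaling. Genes were filtered with filterByExpr by strain (8372 kept, all 106 members among them) and scaled by TMM, with factors from 0.832 to 1.17. Strains were compared by quasi-likelihood F-tests in edgeR 4.0.16 (R 4.3.3), with Benjamini-Hochberg adjustment over all genes tested and a threshold of 0.05, on all 12 libraries. Standard errors are the log2 fold change divided by the root of F. The tag terms came from a second fit with strain and tag (replicate 3 against replicates 1 and 2). Both fits were run on simulated counts that gave every gene the same spread between libraries (dispersion 0.102). The simulation for strains held no shift of replicate 3. It therefore does not show how the fits behave with the uneven spread of these libraries. Alternatives were DESeq2 1.42.0, limma-voom 3.58.1, other scalings and filters, blocks and each library left out.

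The members and lists were chosen with earlier results of these data known. Named genes are the 10 most abundant per kb, the 10 with the widest gap, those with a symbol, those called in ∆hH2Az;∆set-7 against ∆hH2Az, the 5 lowest p-values in each comparison of the tag, neighbouring pairs, and the 3 on each side of the limit; others, such as further calls for the tag, were named after their values were seen. Deviations of same-numbered libraries from their strain means correlated over 0.1 in all 3 pairs of ∆set-7 and wild type (0.21 to 0.48). The same held for ∆hH2Az and ∆set-7 (0.16 to 0.3). They did not in ∆hH2Az;∆set-7 and ∆hH2Az (-0.2 to 0.19), ∆hH2Az and wild type (-0.09 to 0.06) or ∆hH2Az;∆set-7 and ∆set-7 (0.02 to 0.09). In ∆hH2Az;∆set-7 and wild type all were negative (-0.39 to -0.17). Replicate 3 has another tag in every strain, so pairing by number and a shared effect of the tag cannot be told apart.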

Additional observations from a re-analysis of the deposited data

Results flagged for a closer look

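The difference between replicate 3 and replicates 1 and 2, which carry different label tags, was itself different between libraries lacking hH2Az and libraries keeping it for 7 of 106 members (6.6%), against 4.3% of all genes tested, by a term for the difference that was chosen after seeing the data (edgeR, adjusted p under 0.05). The difference, in log2 units and positive where the effect was higher in libraries lacking hH2Az, was 3.66 (SE 0.487, adjusted p = 0.011 in edgeR) for NCU04591, 2.67 (SE 0.494, adjusted p = 0.0249 in edgeR) for aod-3, 2.48 (SE 0.296, adjusted p = 0.0107 in edgeR) for NCU04282 and 2.14 (SE 0.488, adjusted p = 0.0444 in edgeR) for NCU09459. It was smaller for NCU04644, at 0.85 (SE 0.196, adjusted p = 0.0464 in edgeR). It was negative for NCU07434, at -1.99 (SE 0.294, adjusted p = 0.0161 in edgeR), and for NCU05609, at -1.71 (SE 0.412, adjusted p = 0.0496 in edgeR). For NCU05609 the libraries lacking hH2Az had 57.2 and 68.9 CPM in replicate 3 and 87.1 to 130 CPM in replicates 1 and 2, and those keeping it had 2.46 and 3.07 CPM in replicate 3 and 0.341 to 1.99 CPM in replicates 1 and 2. The number of members called for this difference depended on the libraries and the test. It was 0 without ∆set-7 replicate 1 (0.0473% of all genes) and 2 without wild-type replicate 2 (0.259%). With the DESeq2 Wald test it was 15 (12.5%). The meaning of the tag is not stated, and its part in these differences was not tested. Each strain has 3 libraries, so single libraries were not tested as outliers.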

How the results depend on the processing

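The number of members was 235 with a 2-fold limit, 42 with a 5-fold limit and 210 with the 8 libraries of replicates 1 and 2 alone, a setting added after seeing the data; fewer libraries leave fewer values to meet the limit. It was 88 with TMM-scaled CPM, 99 to 113 under the other settings, and 106 to 120 with each library left out. The members called in ∆hH2Az;∆set-7 against ∆hH2Az, 1 in the report, were 4 with the DESeq2 Wald test, 0 with the label tag as a block, 0 with only the 6 libraries of both strains, 42 with replicates 1 and 2 alone, and 0 to 8 with each library left out (7 without ∆hH2Az replicate 3, 8 without ∆hH2Az;∆set-7 replicate 3). With the replicate number as a block 0 were called, and deviations of same-numbered libraries did not correlate consistently between these 2 strains. In ∆set-7 against wild type, a comparison that the rule bounded, 0 members were called with or without the block. Members called for replicate 3 against replicates 1 and 2 among libraries lacking hH2Az, 16 in the report, were 26 with the DESeq2 Wald test and 8 to 33 with each library left out. Among libraries keeping hH2Az, 3 in the report, they were 8 with the DESeq2 Wald test, 1 with limma-voom and 0 to 8 with each library left out. The cause of these shifts was not tested. Over 20 gene results and 363 alternative values, 250 kept their call, 113 lost it and 0 reversed. Upper-quartile scaling moved the median of all genes to -0.12 in ∆hH2Az against wild type and -0.13 in ∆hH2Az;∆set-7 against ∆set-7, and left 12 and 8 of the 21 import genes called, all higher. Members at a few reads in the libraries keeping hH2Az have folds that are limited by counting.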
